A study of Mus musculus with 24 samples.

Results

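The supplement effect was taken from all 24 of the 24 libraries of the series, as the supplement term of an additive model of rearing and supplement: 12 libraries from mice given EC-12 against 12 from mice without it, adjusted for rearing. EC-12 is a preparation of heat-killed Enterococcus faecalis, a lactic acid bacterium of the gut, and was given for 5 weeks. RNA was sequenced from the prefrontal cortex of adult male mice, all labelled wild type, with no age in weeks given. The groups were Control (normal rearing, no supplement), MS (maternal separation, in which pups spend time away from the dam as a stress of early life, no supplement), Control_EC12 (normal rearing with EC-12) and MS_EC12 (maternal separation with EC-12), with 6 libraries each. Whether libraries and mice correspond 1 to 1 is not in the labels, and p-values therefore reflect only how much the libraries vary, which may be technical in part. A main effect asks what the supplement changed on average over both rearings, and a separate interaction test asks whether the change differed between them.

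Killed bacteria carry cell-wall and nucleic acid fragments that innate immune receptors sense, and interferon-stimulated genes and the class I antigen presentation machinery are among the genes that such sensing can raise. In the brain, endoplasmic reticulum (ER) chaperones fold secreted and membrane proteins, and their genes are raised together when unfolded protein accumulates. The circadian clock is a loop in which CLOCK and BMAL1 activate the Per and Cry genes through E-box motifs, and the PER and CRY proteins then repress that activation.

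Total counts per library ran from 26250197 to 39252382, and 18380 of 45777 genes were tested. Cortical layer markers summed to between 1166.5 and 1431.7 CPM (read counts scaled to library size) in every library, and striatal markers, from a region that borders on the dissected one, to between 2351.3 and 5348.5 CPM. The median sum of the layer markers was 1332.7 CPM in Control, 1232.9 in Control_EC12, 1320.2 in MS and 1220.8 in MS_EC12. Libraries differed in how expression depended on the GC content of genes. The slope of log2 CPM on GC was 0.118 ± 0.32 per 10 percentage points in EC-12 libraries and −0.118 ± 0.134 in the others (SD, n = 12; exact 2-sided permutation within rearing, p = 0.029, adjusted over 5 library measures 0.0363). The 5 were this slope, its form over genes of at least 10 CPM, a Spearman correlation in its place, mitochondrial share and total count. The slope and its alternatives measure the same property but were counted separately. Slopes above 0 were found in 7 libraries: MS replicate 3, Control_EC12 replicates 3 and 4, and MS_EC12 replicates 3, 4, 5 and 6. Because 6 of these 7 carried the supplement, results were also computed in the 17 libraries with a slope below 0 (6 Control, 5 MS, 4 Control_EC12, 2 MS_EC12) and in a fit of all 24 libraries with offsets by GC content. The share of counts on mitochondrial protein genes was also higher with EC-12, 7.57 ± 1.12% against 6.80 ± 0.464% (SD, n = 12; exact permutation p = 0.0262, adjusted 0.0363). The labels give no batch of extraction or sequencing, so a batch that moved with the supplement cannot be told apart from it.

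**Figure D1:**
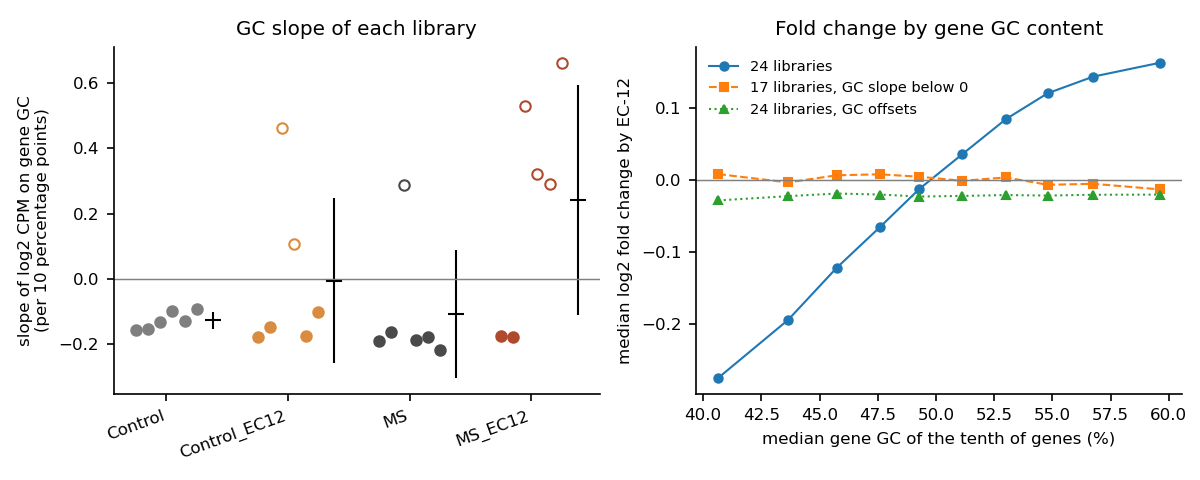
Left, the slope of log2 CPM on gene GC content for each library by group, with the mean and SD beside the points and open symbols for slopes above 0. Right, the median log2 fold change by EC-12 in 10 classes of genes ordered by GC content: it runs from −0.28 to 0.16 in 24 libraries, from 0.01 to −0.01 in the 17 libraries, and is flat with GC offsets. The offsets were set from medians within GC bins, so that line is flat by construction, and the 17 libraries were chosen by their slope.

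In the additive model 1550 genes changed with EC-12 (8.43% of those tested, edgeR quasi-likelihood test, Benjamini-Hochberg adjusted p under 0.05), 903 higher (4.91%) and 647 lower (3.52%), and 6066 had an unadjusted p under 0.05. The split between directions differed between fits: with GC offsets 558 genes were higher and 914 lower (1472, 8.01%), and in limma on the deposited TPM values, which changes the test as well as the scaling, 378 were higher and 1977 lower. With RLE scaling in the same test 849 were higher and 783 lower. In the 17 libraries 139 genes passed (0.756%), 60 higher and 79 lower. Leaving out a single library moved the total from 260 (without MS_EC12 replicate 4) to 3723 (without MS_EC12 replicate 2), and 22 of the 24 omissions moved it by more than 1.5 times. Higher genes had a median GC content of 55.0% and a median transcript length of 1973 bases, lower genes 45.6% and 5030.5 bases, against 50.2% and 3180 bases for all genes. The part of this GC dependence in each call was not tested.

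Of the 1550 genes, 79 also passed in the 17 libraries and 723 with GC offsets, and 63 passed in all 3 fits with the same sign (0.343%), 27 higher and 36 lower. These 63 genes changed by 1.12-fold to 1.77-fold, with a median absolute log2 fold change of 0.39. Their median GC content was 49.9% for the higher genes and 47.8% for the lower ones. They had the same sign in both rearings in 63 of 63 cases, as had all 1550, but all were chosen on the effect over both rearings. Over all genes 72.2% had the same sign in both rearings, and 60.3% in the 17 libraries. Left out one at a time, the libraries left between 50 and 63 of them passing, the fewest without MS_EC12 replicate 4 and without MS replicate 5, and 49 passed in every one of the 24 omissions. These fits reuse the libraries that chose the genes. With the GC slope of each library as a covariate 37 of the 63 passed, and Pdia6, P4ha1 and Hadh were among those that did not (adjusted p = 0.0703, 0.0703 and 0.056). In only 3 genes did the libraries with and without EC-12 not overlap in either rearing (0.0163%): Stk4, Specc1 and Vcl.

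**Figure D2:**
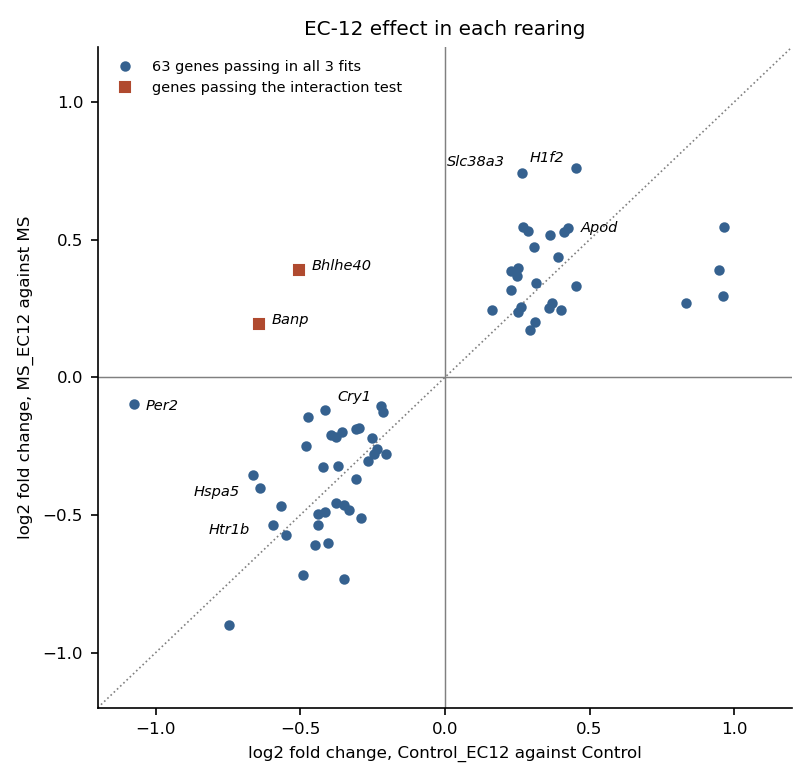
Log2 fold change of the 63 genes that passed in all 3 fits, in normally reared mice (x axis) and in maternally separated mice (y axis), with the 2 genes that passed the interaction test as squares and equal effects on the dotted line. The 63 genes lie in the quadrants where both rearings have the same sign, and Per2 lies near 0 on the y axis.

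A few chaperone genes were lower with EC-12. Hspa5, which encodes BiP, the main chaperone of the ER lumen and a sensor partner of the unfolded protein response, had the fifth smallest p of all genes, and Pdia6, a protein disulfide isomerase that works with BiP, also fell. The cytosolic co-chaperones Dnajb4 and Chordc1, partners of HSP70 and HSP90, fell too. Where 3.52% of all genes fell, 3 of 26 ER chaperone genes tested fell and 0 rose (4 fell in the 17 libraries), and of 24 cytosolic and mitochondrial heat shock genes 3 fell and 0 rose, with median log2 fold changes of −0.07 and −0.10 against 0.02 for all genes. The group count thus rests on few members, and the others did not pass. By rearing, the ER chaperone median was −0.14 in normal rearing (3 of 26 positive) and 0.02 after separation (15 of 26 positive). In the 17 libraries 6 of these genes fell in normal rearing and 0 after separation, with medians of −0.16 and −0.09. Over all 18380 genes 64 and 3 fell there in the same order, and only 2 MS_EC12 libraries remained after separation. With so few calls over all genes the 0 cannot show a difference between rearings. The promoters of Hspa5 and Pdia6 are shown first because both hold the ER stress element, the motif through which ATF6 and NF-Y act on chaperone genes, in the 250 bases before the gene's start (RefSeq, GRCm38.p6, plus strand, chr2:34771840-34772089 and chr12:17266339-17266588, capitals mark the motif).
Hspa5: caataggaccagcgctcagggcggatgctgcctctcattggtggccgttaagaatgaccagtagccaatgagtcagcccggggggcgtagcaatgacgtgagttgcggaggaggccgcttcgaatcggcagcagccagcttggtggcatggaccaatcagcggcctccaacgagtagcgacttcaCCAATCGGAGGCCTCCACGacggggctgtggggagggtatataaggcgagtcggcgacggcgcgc
Pdia6: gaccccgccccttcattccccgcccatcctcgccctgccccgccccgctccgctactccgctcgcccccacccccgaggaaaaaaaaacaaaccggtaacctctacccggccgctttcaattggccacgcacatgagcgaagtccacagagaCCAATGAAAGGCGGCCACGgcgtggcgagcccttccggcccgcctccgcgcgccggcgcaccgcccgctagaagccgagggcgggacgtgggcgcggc

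The element was searched as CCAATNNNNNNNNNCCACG on both strands. It begins 65 bases before the start in Hspa5 and 98 bases in Pdia6. Among 17547 promoters of tested genes 21 held it (0.12%), and among 25 promoters of the ER chaperone list 8 did (32%). A match describes letters and not a bound site, and the list is known for this motif, so its share there is no result of these data. The 8 genes did not move alike: Hspa5, Pdia6 and Canx passed, Hsp90b1 had a log2 fold change of −0.40 (adjusted p = 0.0904; −0.10 in the 17 libraries) and Dnajc3 of −0.29 (adjusted p = 0.0658; −0.07 in the 17 libraries), and the other 3 lay between −0.10 and 0.04. Hsp90b1, the ER form of HSP90, and Dnajc3, a co-chaperone of BiP, were singled out by the motif and after their values were seen.

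Hspa5 (Gene ID 14828, chromosome 2, 34772090 to 34776529) had a lowest, median and highest level of 223, 282 and 321 CPM in Control and 125, 188 and 199 CPM in Control_EC12. The respective levels were 215, 290 and 359 CPM in MS and 171, 227 and 254 CPM in MS_EC12. Supplemented and unsupplemented libraries were separate in normal rearing and overlapped after maternal separation, where all 6 MS_EC12 libraries were below the MS mean. The log2 fold change was −0.52 ± 0.0902 (SE, n = 12 per side; adjusted p = 0.0115), and it was −0.47 in the 17 libraries and −0.46 with GC offsets. Hspa5 overlaps Rabepk and Pdia6 overlaps Atp6v1c2, so reads of these pairs could have been split between genes. The same holds for Dnajb4 with Fubp1, Per3 with Uts2, Synj2 with Serac1, Flrt3 with Macrod2 and B2m with Patl2.

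Pdia6 spanned 87 to 113 CPM (median 102) in Control, 75.5 to 101 (81.2) in Control_EC12, 98.4 to 126 (115) in MS and 90.5 to 106 (97.8) in MS_EC12. Each of the 12 supplemented libraries was below the mean of its unsupplemented group, although the ranges overlapped in both rearings. Its log2 fold change was −0.24 ± 0.0556 (adjusted p = 0.0227), with −0.28 in the 17 libraries. P4ha1, an ER enzyme that hydroxylates proline in collagen, fell from 53 ± 8.15 to 40.9 ± 5.48 CPM (SD, n = 12; log2 fold change −0.37, adjusted p = 0.0162), with −0.32 in the 17 libraries. Canx, the membrane chaperone calnexin, was just past the threshold at −0.19 (adjusted p = 0.049), stood at −0.07 in the 17 libraries and turned to 0.02 with GC offsets.

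Dnajb4 ranged from 59.7 to 71.1 CPM (median 67.9) in Control, 34.5 to 61.2 (53.5) in Control_EC12, 44.5 to 69.4 (64.8) in MS and 33.2 to 62.9 (41) in MS_EC12. Chordc1 ranged from 49.3 to 61.9 CPM (57.7), 27.1 to 51.9 (45.5), 36 to 66.3 (58.5) and 23.9 to 54.2 (33.6) in the same order. In both genes the MS library of low level was replicate 3, the one MS library with a GC slope above 0. Their log2 fold changes were −0.42 ± 0.0987 (adjusted p = 0.0238) and −0.50 ± 0.123 (adjusted p = 0.0255). These were nearer 0 in the 17 libraries, at −0.22 and −0.23, and both still passed there. Chordc1 missed the threshold without MS_EC12 replicate 4 (adjusted p = 0.0521) and without MS replicate 5 (0.0527). Hsph1, a nucleotide exchange factor of HSP70, fell by 0.33 (adjusted p = 0.0238) and did not pass in the 17 libraries (adjusted p = 0.106). With GC offsets 8 of the 24 heat shock genes fell, where 914 of all 18380 genes did.

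**Figure D3:**
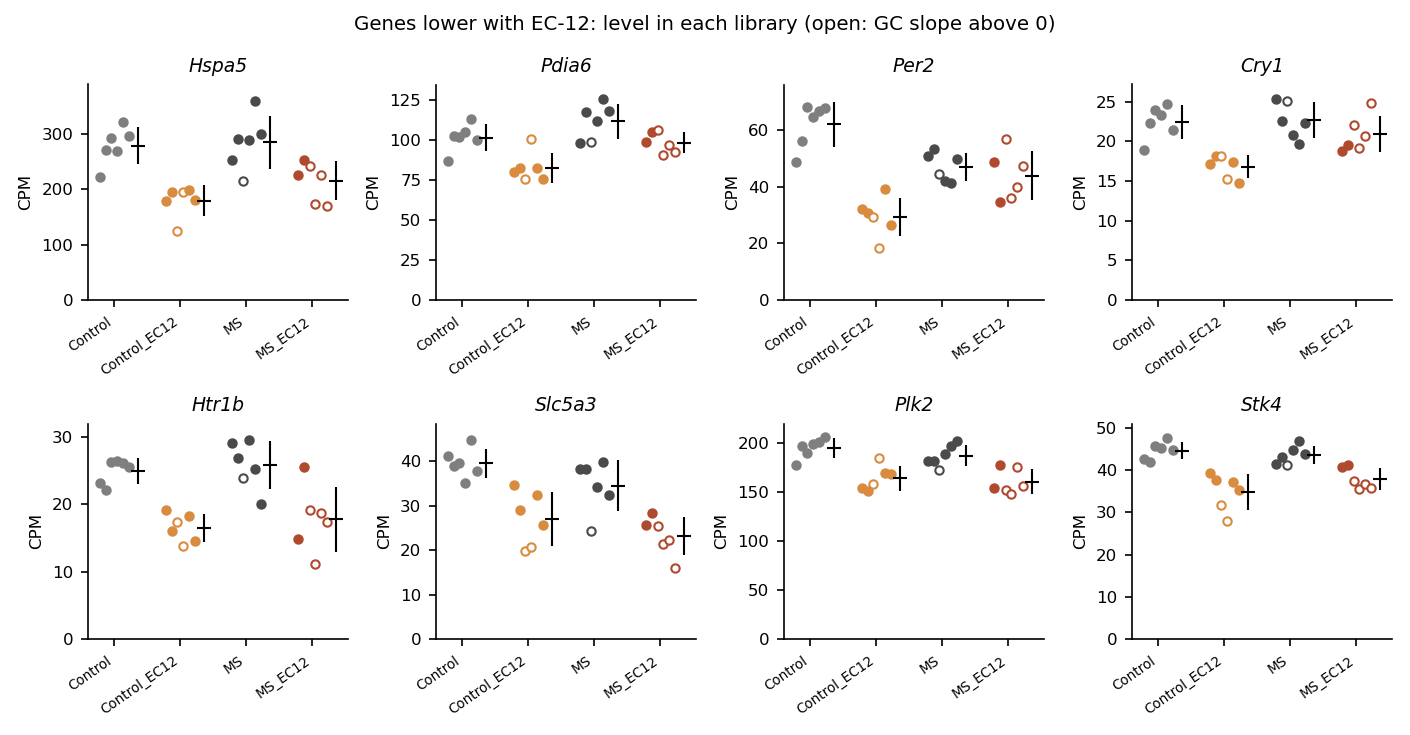
CPM of 8 genes that were lower with EC-12, in each library of the 4 groups, with the mean and SD beside the points. Open symbols are the 7 libraries with a GC slope above 0. All genes shown except Pdia6 and Plk2 do not overlap between normally reared groups, and all except Stk4 overlap after maternal separation.

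Of the core clock genes, 5 were lower and 2 higher with EC-12, against 3.52% and 4.91% of all genes. Per2 and Cry1, partners in the repressor complex of the clock, fell, as did Nr1d2, Per3 and Rorb, while Nr1d1 and Nfil3 rose; the last pair is outside the naming rule and was added after its values were seen. These 7 were of 21 clock genes tested, with a median log2 fold change of −0.05, and in the 17 libraries 3 fell, 0 rose and the median was −0.16. By rearing, the median was −0.17 in normal rearing (3 of 21 positive) and 0.08 after separation (12 of 21 positive). In the 17 libraries it was −0.17 and −0.09 in the same order. Cry1 is shown because its promoter holds the E-box CACGTG 60 bases before the start (chr10:85185055-85185304, minus strand, capitals mark the E-box), a motif found on either strand in 6 of 27 clock promoters and in 7.6% of all promoters. Promoters of genes that fell held it in 7.35%, and it was not found in those of Per3 and Rorb.
Cry1: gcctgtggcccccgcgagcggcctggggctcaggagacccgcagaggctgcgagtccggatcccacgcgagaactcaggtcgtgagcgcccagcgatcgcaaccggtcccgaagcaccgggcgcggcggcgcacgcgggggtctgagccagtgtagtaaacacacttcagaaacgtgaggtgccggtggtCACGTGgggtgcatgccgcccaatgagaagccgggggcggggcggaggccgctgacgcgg

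Per2 (chromosome 1, 91415977 to 91459351) had a lowest, median and highest level of 48.7, 65.6 and 68.1 CPM in Control and 18.5, 30 and 39 CPM in Control_EC12. In maternally separated mice it was 41.4, 47.1 and 53.1 CPM without and 34.5, 43.6 and 56.9 CPM with the supplement. The normally reared groups were separate and the separated ones overlapped, with 3 of 6 MS_EC12 libraries below the MS mean. The main effect was −0.58 ± 0.139 (adjusted p = 0.0238), made up of −1.08 in normal rearing (adjusted p = 0.00106) and −0.10 after separation (adjusted p = 0.64). The difference between rearings did not pass over all genes (interaction adjusted p = 0.152).

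Cry1 spanned 18.9 to 24.7 CPM (median 22.8) in Control against 14.8 to 18.2 (17.3) in Control_EC12, and 19.6 to 25.3 (22.5) in MS against 18.8 to 24.8 (20.1) in MS_EC12. As for Per2, only the normally reared groups were separate. Its main effect was −0.27 ± 0.0668 (adjusted p = 0.0283), and −0.33 in the 17 libraries. It missed the threshold without MS_EC12 replicate 4 (adjusted p = 0.0527). Per3 fell by 0.23 and Nr1d2, a nuclear receptor that represses clock genes, by 0.41 (adjusted p = 0.0374 and 0.0346), and both passed with GC offsets but not in the 17 libraries. Nr1d1, the paralog of Nr1d2, stood at 0.27 in all 24 libraries and 0.05 in the 17.

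The lower genes named by rank included products of neurons. Htr1b, a serotonin receptor that sits on axon terminals and inhibits release, had the second smallest p of all genes. Nefm, the medium neurofilament subunit of axons, Plk2, a kinase induced by activity that acts on dendritic spines, Arpp21, a neuronal RNA-binding phosphoprotein, Synj2, a phosphoinositide phosphatase of vesicle recycling, and Flrt3, a synaptic adhesion protein, fell in all 3 fits. Slc5a3, the sodium-coupled carrier of myo-inositol, and Slc7a14, a transporter of the cationic amino acid family, fell as well.

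Htr1b ran from 22.1 to 26.4 CPM (median 25.9) in Control, 13.8 to 19.1 (16.7) in Control_EC12, 20.1 to 29.5 (26.1) in MS and 11.1 to 25.5 (18) in MS_EC12. Groups were separate in normal rearing, and after separation 5 of 6 MS_EC12 libraries were below every MS library. The log2 fold change was −0.57 ± 0.095 (adjusted p = 0.0115), −0.59 in normal rearing and −0.54 after separation, and −0.49 in the 17 libraries. Of 11 serotonin receptor genes 3 fell and 1 rose, against 3.52% and 4.91% of all genes. Htr4 and Htr2c changed by −0.65 and −0.46 (adjusted p = 0.0144 and 0.0165) and missed the threshold in the 17 libraries (adjusted p = 0.0616 and 0.0612), and Htr3a rose by 0.32 (adjusted p = 0.0455; 0.12 in the 17 libraries).

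Slc5a3 had a lowest, median and highest level of 35, 39.3 and 44.7 CPM in Control against 19.9, 27.3 and 34.7 CPM in Control_EC12, and 24.4, 36.2 and 39.7 CPM in MS against 16, 23.9 and 28.3 CPM in MS_EC12. Its groups were separate in normal rearing only. The log2 fold change of −0.56 ± 0.098 (adjusted p = 0.0115) was −0.40 in the 17 libraries and −0.30 with GC offsets. Slc5a3 shares its locus with Mrps6, so part of its reads could belong to that gene.

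Nefm ranged from 165 to 194 CPM (median 176) in Control, 135 to 162 (148) in Control_EC12, 167 to 202 (177) in MS and 132 to 169 (143) in MS_EC12, a log2 fold change of −0.28 ± 0.0499 (adjusted p = 0.0115). Plk2 ranged from 178 to 207 CPM (198), 151 to 185 (163), 173 to 202 (185) and 148 to 178 (155) in the same order, a log2 fold change of −0.24 ± 0.0438 (adjusted p = 0.0115). For both genes each supplemented library was below the mean of its unsupplemented group, and both had −0.25 in the 17 libraries. The Plk2 promoter holds the palindromic cyclic AMP response element TGACGTCA, the site of CREB factors that many activity-induced genes carry, 62 bases before the start (chr13:110394794-110395043, plus strand, capitals mark it), as 2.25% of all promoters do.
Plk2: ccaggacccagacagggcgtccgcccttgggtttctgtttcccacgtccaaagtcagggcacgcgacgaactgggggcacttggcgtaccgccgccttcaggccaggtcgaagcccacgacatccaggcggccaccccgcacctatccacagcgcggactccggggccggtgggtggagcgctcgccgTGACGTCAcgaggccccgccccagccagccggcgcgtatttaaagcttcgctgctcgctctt

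Homer1, a scaffold protein of the postsynaptic density, had the smallest p of all genes and fell from 178 ± 19 to 124 ± 23.3 CPM (SD, n = 12; log2 fold change −0.53 ± 0.0872, adjusted p = 0.0115). It ran from 138 to 194 CPM in Control, 82.5 to 153 in Control_EC12, 153 to 209 in MS and 96.7 to 154 in MS_EC12. It passed in the 17 libraries at −0.40 and missed with GC offsets (−0.27, adjusted p = 0.0528). Of 31 postsynaptic scaffold and adhesion genes 7 fell and 1 rose, against 3.52% and 4.91% of all genes, with a median of −0.11, and in the 17 libraries 1 fell, 0 rose and the median was −0.08. The GABA-A receptor subunits, whose transcripts have a median GC content of 43.6%, had a median of −0.32 over 14 genes and of −0.06 in the 17 libraries, and 1 of them, Gabra4, passed. Of 20 cortical layer markers 3 fell, among them the clock gene Rorb, and 1 rose, with a median of −0.08. In the 17 libraries 0 of the layer markers passed and their median was −0.06.

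Stk4, the Hippo pathway kinase MST1, fell from 44 ± 2.08 to 36.4 ± 3.67 CPM. It ran from 41.9 to 47.6 CPM in Control, 27.9 to 39.4 in Control_EC12, 41.2 to 46.9 in MS and 35.5 to 41.2 in MS_EC12. The ranges did not overlap in either rearing before rounding, though the highest MS_EC12 and the lowest MS library were nearly equal. The log2 fold change was −0.28 ± 0.0523 (adjusted p = 0.012) and −0.20 in the 17 libraries. Specc1 and the actin anchor protein Vcl, the latter named after its values were seen, changed by −0.22 and −0.29 and just missed in the 17 libraries (adjusted p = 0.0505 and 0.0583). Enox1, Ric8b, a chaperone of G protein alpha subunits, the deubiquitinase Usp27x and Tro fell by 0.25 to 0.41 in log2 and passed in all 3 fits.

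The higher genes named by rank included several that act on lipids, but they form no list: of 26 genes of cholesterol synthesis, uptake and export 1 rose and 0 fell, with a median of 0.02. Hadh, which catalyses a step of mitochondrial fatty acid oxidation, Apod, a lipocalin that carries lipids and is made by glia and fibroblasts, Npc2, which moves cholesterol out of lysosomes, and Abhd4, a hydrolase in the synthesis of N-acylethanolamines, rose in all 3 fits. Slc38a3, the glutamine carrier of astrocytes, the glutathione transferase Mgst1, the protease inhibitor Cst3 and the membrane protein Stom rose too.

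Apod ran from 118 to 159 CPM (median 142) in Control, 147 to 247 (175) in Control_EC12, 112 to 164 (137) in MS and 159 to 237 (190) in MS_EC12, a log2 fold change of 0.48 ± 0.0854 (adjusted p = 0.0115). Npc2 ran from 47 to 54.7 CPM (49.3), 52.1 to 66.2 (57.4), 46.1 to 57.9 (49.9) and 61.1 to 80 (64.5) in the same order, a log2 fold change of 0.31 ± 0.0554 (adjusted p = 0.0115). In both genes all 12 supplemented libraries were above the mean of their unsupplemented group, and only the separated groups of Npc2 did not overlap. In the 17 libraries the log2 fold changes were 0.42 and 0.24. Hadh rose by 0.31 in log2 from 20.5 ± 1.7 to 25.5 ± 3.22 CPM (SD, n = 12; adjusted p = 0.0144; 0.26 in the 17 libraries), between 18.7 and 25.1 CPM without and 21.3 and 32.4 CPM with the supplement.

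Abhd4 ranged from 51.7 to 60.3 CPM in Control, 57.3 to 79.1 in Control_EC12, 52.3 to 77.2 in MS and 75.8 to 115 in MS_EC12, where replicate 6 was the highest (log2 fold change 0.41 ± 0.0758, adjusted p = 0.0115). Slc38a3 ranged from 69.3 to 89.6, 73.6 to 129, 57.6 to 79.9 and 85 to 149 CPM in the same order (0.51 ± 0.106, adjusted p = 0.0165), and its groups were separate only after separation. Cst3 ranged from 864 to 1005, 928 to 1411, 830 to 1100 and 1148 to 1859 CPM (0.41 ± 0.0805, adjusted p = 0.0144), again with MS_EC12 replicate 6 the highest. All 3 genes also rose in the 17 libraries, which leave that library out, by 0.34, 0.53 and 0.27.

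**Figure D4:**
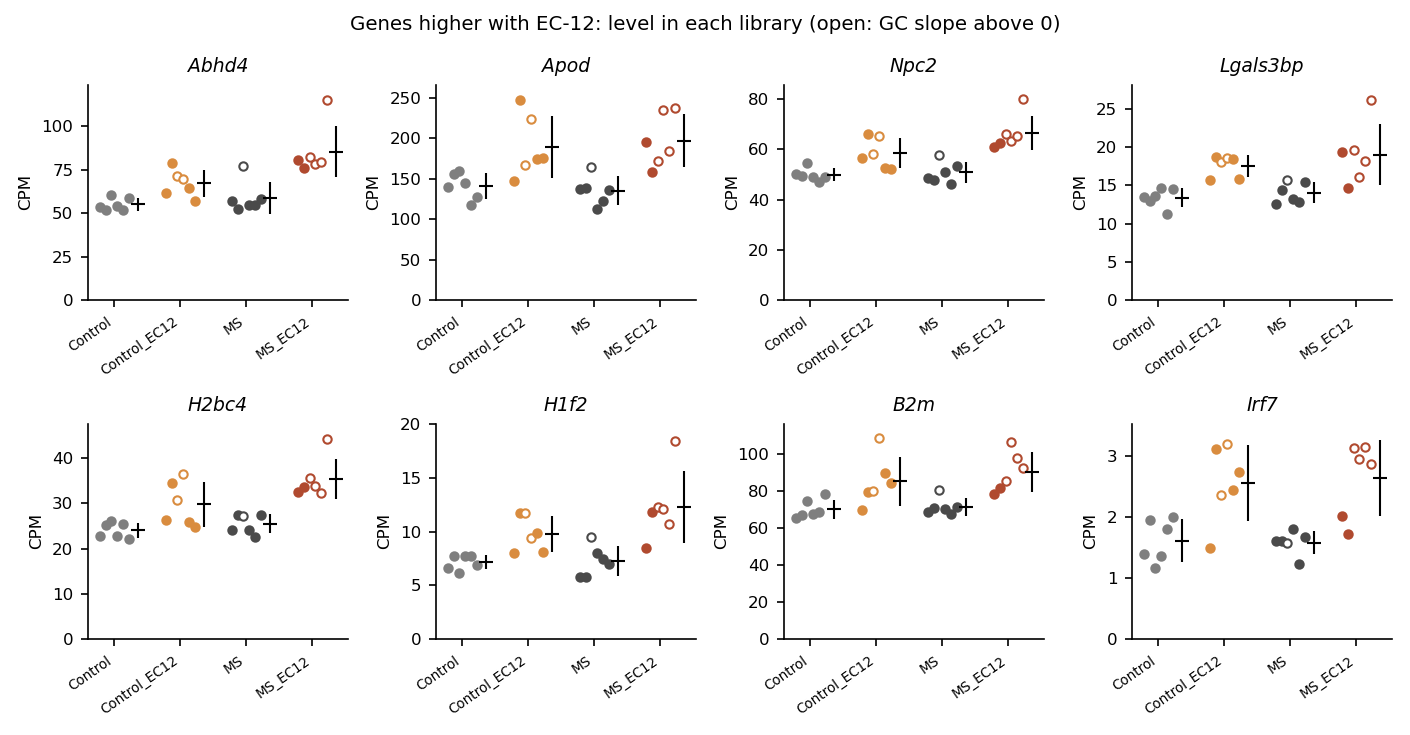
CPM of 8 genes that were higher with EC-12, in each library of the 4 groups, with the mean and SD beside the points and open symbols for the 7 libraries with a GC slope above 0. Lgals3bp and H1f2 do not overlap between normally reared groups, and B2m and Irf7 overlap in both rearings.

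Histone genes whose main transcripts lack a poly(A) tail were higher, 7 of 19 tested and 0 lower (4.91% of all genes rose), with a median log2 fold change of 0.25, and 0.28 in the 17 libraries, where 2 passed. The list held 65 such genes, and those not tested had counts too low for the filter. H2bc4, a core histone H2B gene, ran from 22.1 to 26 CPM (median 24) in Control, 24.7 to 36.5 (28.4) in Control_EC12, 22.5 to 27.5 (25.6) in MS and 32.2 to 44.2 (33.8) in MS_EC12. The separated groups did not overlap. Its log2 fold change was 0.39 ± 0.0692 (adjusted p = 0.0115), and 0.28 in the 17 libraries. H1f2, a linker histone, rose by 0.61 ± 0.11 (adjusted p = 0.0115), from 5.77 to 9.5 CPM in the unsupplemented libraries to 8.05 to 18.5 CPM in the supplemented ones, and by 0.46 in the 17 libraries. Histone gene copies are nearly identical, so reads could have been split between them.

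Genes of class I antigen presentation, which load peptides onto cell-surface molecules, were higher as a group in all 24 libraries: 11 of 15 rose and 0 fell, against 4.91% of all genes that rose, with a median of 0.38. All 15 fold changes were also positive in the 17 libraries, with a median of 0.25, but 0 of them passed there, and 6 rose with GC offsets. By rearing, the median in the 17 libraries was 0.37 in normal rearing, with 15 positive. After separation, where 2 MS_EC12 libraries remained, it was 0.10, with 10 positive. Of 31 interferon-stimulated genes 7 rose and 0 fell, with medians of 0.17 and, in the 17 libraries, 0.24, where 2 rose. In all 24 libraries their median was 0.23 in normal rearing (29 of 31 positive) and 0.11 after separation (18 of 31 positive). It was 0.29 and 0.18 in the 17 libraries, with 29 and 26 positive. Class II genes (3 of 8 higher), complement (4 of 17) and microglia markers (6 of 20) had 0 passing in the 17 libraries, and the microglia markers summed to between 567.4 and 675.7 CPM without and 616.0 and 743.5 CPM with EC-12. In bulk tissue, more cells of a type and more RNA per cell cannot be told apart.

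B2m, the light chain of class I molecules, and Bst2, an antiviral membrane protein, are shown because both promoters hold the interferon-stimulated response element, searched as GAAANNGAAAN on both strands and found in 13 of 26 promoters of the interferon list and in 2.58% of all promoters. It lies 139 bases before the start in B2m (chr2:122147437-122147686, plus strand), and 2 overlapping copies begin 130 and 124 bases before the start in Bst2 (chr8:71537473-71537722, minus strand, capitals mark the element).
B2m: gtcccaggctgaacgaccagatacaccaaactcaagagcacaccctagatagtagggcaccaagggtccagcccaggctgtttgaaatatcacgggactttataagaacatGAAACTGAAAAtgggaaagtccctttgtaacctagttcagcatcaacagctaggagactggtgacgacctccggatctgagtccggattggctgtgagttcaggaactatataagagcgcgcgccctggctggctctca
Bst2: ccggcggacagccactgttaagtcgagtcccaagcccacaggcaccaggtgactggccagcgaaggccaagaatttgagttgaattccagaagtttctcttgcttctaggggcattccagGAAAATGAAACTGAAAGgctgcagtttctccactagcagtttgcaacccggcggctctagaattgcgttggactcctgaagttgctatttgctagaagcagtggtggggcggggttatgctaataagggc

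B2m had a lowest, median and highest level of 65.4, 67.9 and 78.4 CPM in Control, 69.7, 82 and 109 CPM in Control_EC12, 67.3, 70.4 and 80.5 CPM in MS and 78.2, 88.9 and 106 CPM in MS_EC12. The groups overlapped in both rearings, with 11 supplemented libraries above the mean of their unsupplemented group. Its log2 fold change of 0.31 ± 0.0621 (adjusted p = 0.0154) stood at 0.20 in the 17 libraries, just short of the threshold (adjusted p = 0.0504). Irf7, a transcription factor that amplifies interferon responses, ran at low levels, from 1.16 to 2 CPM without and 1.49 to 3.2 CPM with EC-12 (0.70 ± 0.129, adjusted p = 0.0115), and Bst2 from 2.32 to 3.87 and 2.94 to 5.48 CPM (0.58 ± 0.11, adjusted p = 0.0127). Neither passed in the 17 libraries (adjusted p = 0.142 and 0.161).

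Tap1, the peptide transporter, Oasl2, an antiviral enzyme homolog, and H2-D1, a class I heavy chain, changed by 0.54, 0.62 and 0.38 (adjusted p = 0.0119, 0.0154 and 0.0177) and did not pass in the 17 libraries. Lgals3bp, a secreted glycoprotein raised by interferons, and Irak2, a kinase of Toll-like and interleukin-1 receptor signalling, rose in all 3 fits. Both were named by rank and are not members of the interferon or bacterial sensing lists, whose counts leave them out. Lgals3bp ran from 11.2 to 14.6 CPM in Control, 15.7 to 18.6 in Control_EC12, 12.6 to 15.7 in MS and 14.6 to 26.1 in MS_EC12 (0.41 ± 0.0745, adjusted p = 0.0115). Irak2 ran from 17.9 to 19.9, 17.2 to 24.6, 15.1 to 20.4 and 20.1 to 25.8 CPM in the same order (0.33 ± 0.0601, adjusted p = 0.0115). Of 36 genes of bacterial sensing and innate cytokine signalling 2 rose and 0 fell, with a median of 0.02, a share near the 4.91% of all genes. These were Rela, an NF-kappa-B subunit (0.27, adjusted p = 0.0239), and Tnfrsf1a, a receptor of tumour necrosis factor (0.27, adjusted p = 0.0378), and neither passed in the 17 libraries. The cytokine genes Tnf, Il6 and Il10 were too low to be tested.

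Where 4.91% of all genes rose, 58 of 80 ribosomal protein genes rose and 0 fell, with a median of 0.27. Of 76 nuclear genes of the respiratory chain and ATP synthase 27 rose and 0 fell, with a median of 0.20. In the 17 libraries 0 of either list passed, and the medians were 0.05 and 0.01. With GC offsets 33 and 19 rose, where 558 of all 18380 genes did. Astrocyte markers rose in 7 of 20 genes, among them Gfap, the intermediate filament of astrocytes (0.36, adjusted p = 0.0196, but 0.25 and not past the threshold without the 7 libraries), and in the 17 libraries 1 of the 20 passed, with a median of 0.07 against 0.16.

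**Figure D5:**
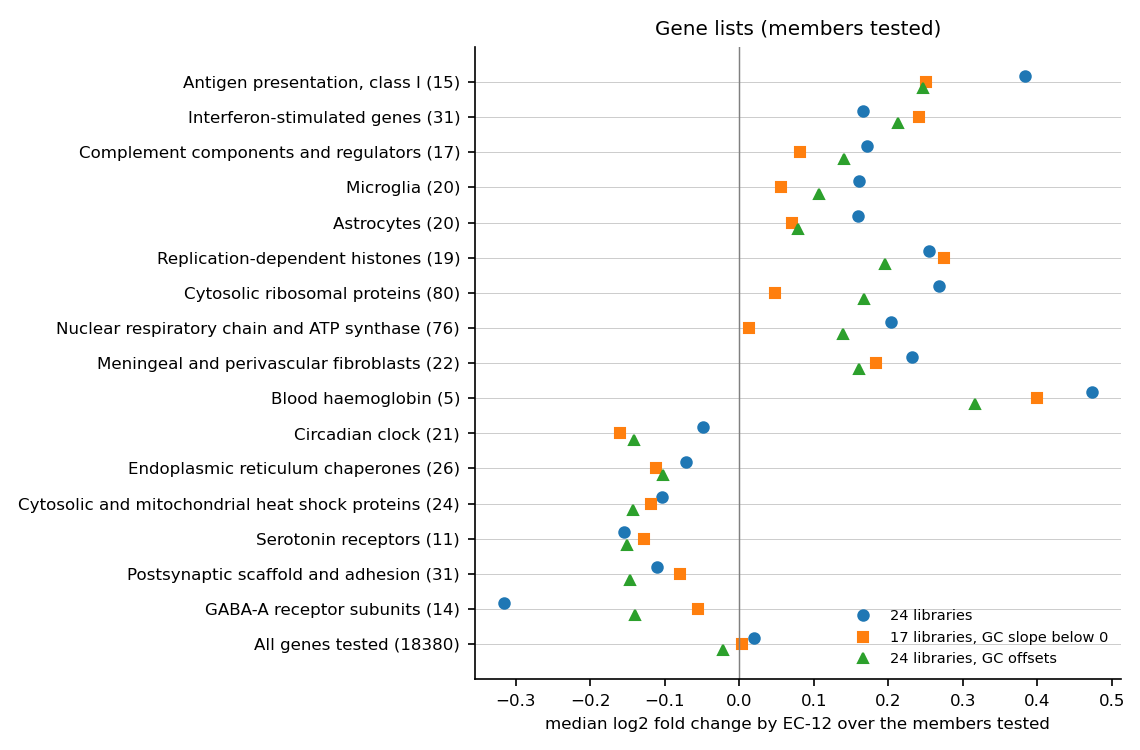
Median log2 fold change by EC-12 over the tested members of 16 gene lists and all genes (number of genes in parentheses), in 24 libraries, in the 17 libraries with a GC slope below 0, and in 24 libraries with GC offsets. With GC offsets class I, interferon and histone genes have medians of 0.25, 0.21 and 0.20, and ribosomal and respiratory genes 0.17 and 0.14. In the 17 libraries the medians are 0.25, 0.24, 0.28, 0.05 and 0.01 in the same order.

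Markers of neighbouring tissue and of blood differed in how they stood with the supplement. Olfactory bulb markers were positive in 13 of 15 genes, with a median log2 fold change of 0.73 and of 0.77 in the 17 libraries. They summed to between 249.7 and 543.5 CPM without and between 315.3 and 865.8 CPM with EC-12, and 2 of the 15 rose in all 24 libraries (against 4.91% of all genes), 0 in the 17 libraries and 0 with GC offsets. These were Pcp4l1 (0.27, adjusted p = 0.0332) and Omp, the marker protein of olfactory sensory neurons (1.57, adjusted p = 0.0446), which averaged 4.34 CPM without and 13 CPM with EC-12. Striatal markers had a median of −0.05 over 25 genes, with 1 lower and 0 higher, and in the 17 libraries a median of −0.26, with 0 of 25 positive and 0 passing; with GC offsets 3 fell. Hypothalamic and septal markers had medians of 0.06 and, in the 17 libraries, −0.23 over 15 genes, with 0 passing in either. Meningeal and perivascular fibroblast markers rose in 5 of 22 genes and fell in 0 (median 0.23, and 0.18 in the 17 libraries, where 0 passed), with sums of 354.9 to 457.9 CPM without and 355.9 to 585.6 CPM with EC-12. Blood haemoglobin genes rose in 4 of 5 (median 0.47, and 0.40 in the 17 libraries, where 0 passed), with sums of 178.6 to 291.6 CPM without and 222.2 to 598.8 CPM with EC-12. Choroid plexus markers summed to 906.4 CPM in MS_EC12 replicate 6 and to between 121.8 and 237.9 CPM in every other library. The part of these tissues in the changes of Apod, the histones, Lgals3bp, the class I genes or the lower neuronal genes such as Htr1b was not tested.

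Within each rearing few genes passed over all genes tested. In normal rearing 4 did (0.0218%), among them Usp43, a deubiquitinase, which was higher, and Per2 and Banp, which were lower. After maternal separation 30 did (0.163%), 28 higher and 2 lower, among them Abhd4, Npc2, Slc38a3, Cst3, H1f2, H2bc4 and Irak2. The interaction passed for 2 genes (0.0109%), Banp and Bhlhe40, with 882 at an unadjusted p under 0.05. Banp, a DNA-binding nuclear protein, spanned 25.2 to 30.9 CPM in Control against 15.9 to 19.6 in Control_EC12, and 16.7 to 22.7 CPM in MS against 18.3 to 27.4 in MS_EC12 (−0.64 and 0.20, interaction adjusted p = 0.0152). Bhlhe40, a repressor of the clock loop, ran from 125 to 153 and 82.5 to 119 CPM, and from 74.5 to 95.6 and 75.2 to 130 CPM (−0.50 and 0.39, interaction adjusted p = 0.0379). Their main effects, −0.22 and −0.06, did not pass (adjusted p = 0.139 and 0.742).

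Of 20 candidate genes of stress, social behaviour and the supplement, 4 rose and 3 fell, against 4.91% and 3.52% of all genes. The list was drawn up with earlier results known. Those that rose were Abhd4, Slc38a3, Crhr1 and Usp43, and those that fell were Per2, Nr3c1 and Bdnf. Nr3c1, the glucocorticoid receptor, changed by −0.36 (adjusted p = 0.0338) and Crhr1, a receptor of corticotropin-releasing hormone, by 0.33 (adjusted p = 0.0225), and neither passed in the 17 libraries (−0.13 and 0.34, adjusted p = 0.173 and 0.0565). Bdnf, a neurotrophin, stood at −0.36 (adjusted p = 0.044), −0.20 in the 17 libraries and −0.07 with GC offsets. Adrb1, the beta-1 adrenergic receptor, did not pass in all 24 libraries (−0.06, adjusted p = 0.602), and it was lower in the 17 libraries (−0.25, adjusted p = 0.0408) and with GC offsets (−0.23, adjusted p = 0.00902). Several calls outside the 63 genes depended on single libraries: Canx, Nr1d2, Per3, Rorb, Nr1d1, Nfil3, Htr3a, Gabra4, Nr3c1, Bdnf, Usp43, Omp, Pcp4l1 and Tnfrsf1a passed in 7 to 13 of the 24 fits that left out 1 library.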

How the data were processed

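Gene expression in the prefrontal cortex was measured in 24 libraries made with a stranded mRNA kit, per the labels' protocols. The tools listed in the submitters' processing notes are HISAT2 2.1.0 and StringTie 2.1.3b, with DESeq2, FastQC 0.11.7 and Trimmomatic 0.38, on build mm10. How they were set, strand included, is not given in the sources used here. Deposited in 1 table were unnormalized read counts per gene, with the FPKM and TPM values that the authors made from the same libraries. Counts gave every main result, TPM an alternative, and FPKM was not used.

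Genes were kept by filterByExpr (minimum count 10, minimum total 15), 18380 of 45777. The additive model was fitted with edgeR 4.0.16 in R 4.3.3 (TMM scaling, quasi-likelihood F test, 2-sided, Benjamini-Hochberg over all genes, threshold 0.05), after a check on simulated data. The simulated libraries had no GC slope and no other factor shared between genes, so the check does not cover false calls from such factors. A second model with 1 coefficient per group gave the effects within rearings and the interaction. Log2 fold changes carry their SE, and CPM values the SD. The GC slope used GENCODE transcripts of GRCm38 and covered 92.7% of tested genes, and GC offsets used 20 bins. Depth of 26250197 to 39252382 counts leaves genes with single-digit counts imprecise. Identifiers were matched to RefSeq GRCm38.p6, which gave coordinates and promoters (13687 of the tested genes had one). No pair of libraries was a duplicate (smallest chi-square per gene 4.84), and 0 columns lacked a sample.

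The members, gene lists, motifs and candidates were chosen with earlier results of these data known. The text names, per direction, the 15 genes of smallest p, up to 15 that passed in all 3 fits, up to 4 members of each list and the candidates, predicted gene models left out; genes outside this rule are said to be, and 1 gene within it is not reported here. Alternatives were RLE scaling, DESeq2 1.42.0, limma 3.58.1 (voom quality weights, and log2(TPM + 0.1)), other filters, models and library sets, and leaving out each library.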

Additional observations from a re-analysis of the deposited data

Results flagged for a closer look

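Among 140 groups of 6 library values examined, 19 held a library that stood apart from the other 5 by more than Dixon's 95% limit, where chance alone gives about 1 in 20 groups.

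In MS replicate 3 the GC slope was 0.289 against −0.22 to −0.165 in the other MS libraries, and 5 genes stood apart: Dnajb4 (44.5 CPM) and Chordc1 (36 CPM) were low, and Hadh (25.1 CPM), Abhd4 (77.2 CPM) and B2m (80.5 CPM) high. In MS_EC12 replicate 6 the summed choroid plexus markers stood at 906 CPM against 129 to 188 in the other MS_EC12 libraries, and Abhd4 (115 CPM), Npc2 (80 CPM), Cst3 (1859 CPM) and H2bc4 (44.2 CPM) were the highest of the group. In Control_EC12 replicate 2 Slc38a3 (129 CPM) and the summed olfactory bulb markers (866 CPM) were high. In Control_EC12 replicate 3 Hspa5 (125 CPM) and the choroid plexus markers (122 CPM) were low. In Control_EC12 replicate 4 Pdia6 (101 CPM) and the microglia markers (739 CPM) were high and Irak2 (17.2 CPM) low. Slc38a3 was high in Control replicate 3 (89.6 CPM).

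The effect of EC-12 differed between rearings by the interaction test for Banp, by 0.84 in log2 (separated minus normally reared), and for Bhlhe40, by 0.89. Both are genes whose unsupplemented levels already differed between the rearings, with every MS library below every Control library.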

How the results depend on the processing

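The number of genes changed depended on the setting. In total, higher and lower it was 2962, 1407 and 1555 with DESeq2; 423, 213 and 210 with voom quality weights; 349, 206 and 143 with no filter on low counts; 2355, 378 and 1977 on log2(TPM + 0.1); 139, 60 and 79 in the 17 libraries; and 82, 35 and 47 with the GC slope as a covariate. With GC offsets 558 were higher, and without a rearing term 415 were lower. Leaving out 1 library gave totals of 260 to 3723, with 179 to 1865 higher and 81 to 1858 lower. RLE scaling, the stricter filter and the mean of the within-rearing differences kept totals within 1.5 times. The cause of these differences was not tested. With the replicate number as a block 4339 genes changed (1841 higher, 2498 lower), 33 within normal rearing, 3809 after separation and 9 in the interaction. The numbers did not pair the libraries throughout (correlations of deviations from −0.30 to 0.575, own number best in 8 of 36 pairs). Replicate 3 correlated at 0.575 between MS and Control_EC12, 0.435 between MS and MS_EC12, and 0.460 between Control_EC12 and MS_EC12. With Control, the replicate 3 values lay between −0.048 and 0.008. Replicate 3 of MS, Control_EC12 and MS_EC12 had GC slopes above 0 (0.289, 0.464 and 0.531). The part of this in the block counts was not tested. Within normal rearing DESeq2 gave 74 genes, the 17 libraries 87 and GC offsets 83; after separation they gave 1894, 14 and 6, and no filter 1. The interaction count was 19 with DESeq2, 1 with no filter and 1 with GC offsets. The GC slope difference passed under both alternatives (p = 0.0267 over genes of at least 10 CPM, 0.0242 by Spearman correlation). All 72 named genes past the threshold kept their direction under every alternative run, except Canx with GC offsets (0.0155). Calls were lost more often: 46 of the 72 with the GC slope as a covariate, 36 in the 17 libraries, 21 with no filter, 19 with GC offsets, 16 with voom weights and 6 each on TPM and without a rearing term. Depth limits genes of few CPM, such as Irf7.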
